A study of Rattus norvegicus with 6 samples.

Results

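NRF2, the transcription factor encoded by Nfe2l2, and 8 genes that it is known to control were examined in bulk liver RNA of rats with CCl4-induced fibrosis and of control rats. The genes were taken by their symbols and are Nfe2l2, Hmox1, Gclc, Gclm, Slc7a11, Txnrd1, Srxn1, Nqo1 and Akr7a3. The glutathione S-transferases, a large family that NRF2 also controls, were not included. All 9 genes were found among the 19616 genes of the table. All 9 also passed the filter on low values, an average over the 6 rats of 0.1 FPKM or more, which left 14864 genes to test. Slc7a11 passed it through the FL group, since its mean in the CL group was 0.0467 FPKM. FPKM are fragments scaled to the length of the transcript and to the number mapped in the library, so that levels can be compared between genes.

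The study compared the RNA of fibrotic and normal liver. In the FL group, male SD (Sprague-Dawley) rats received CCl4, a liver toxin, mixed 1:1 with olive oil, by intraperitoneal injection of 2 mL/kg, 2 times a week over 5 weeks. Rats of the CL group, also male SD, were given an equal volume of olive oil. Their age is not given in the sources used here. Ribosomal RNA was removed, and 1 library per rat was sequenced from the livers of CL5, CL6 and CL7 and of FL2, FL5 and FL12, so that the spread between libraries is the spread between rats. The summed FPKM of all genes lay between 309425 and 340467 for CL and between 272110 and 309226 for FL. The FL rats had more genes above 0 (16546 to 17138, against 16056 to 16416 in the CL rats) and a larger share of FPKM in mitochondrial genes (6.64% to 7.56%, against 4.45% to 6.21%). Their 10 most abundant genes held a smaller share (23.6% to 25.6%, against 31.5% to 36.7%). Steps in the low values of 114 U6 genes gave depths relative to CL5 of 0.656 and 0.84 for CL6 and CL7, and of 0.667, 0.724 and 0.677 for FL2, FL5 and FL12. If these genes have 107 bases, the most common length of U6 genes in RefSeq (46 of 103), the steps come to about 44500000 mapped fragments in CL5, 29200000 in CL6, 37400000 in CL7, 29700000 in FL2, 32200000 in FL5 and 30100000 in FL12. By the same reckoning 1 fragment on a transcript of 1000 bases is worth 0.0225 to 0.0342 FPKM.

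NRF2 is held at a low level by KEAP1, which presents it to a CUL3 ubiquitin ligase for degradation. Oxidants and electrophiles modify KEAP1, and NRF2 that escapes degradation pairs with a small MAF protein and binds the antioxidant response element in the promoters and enhancers of its targets, where the repressor BACH1 can compete with it. In liver its targets make glutathione, recycle thioredoxin and peroxiredoxins, break down heme and reduce quinones and aldehydes, and they are known for the defence against reactive metabolites of toxins.

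Markers of the tissue were read first. The gene said to lead a sum is the marker with the highest mean over the 6 rats, and it need not lead in each rat. Albumin (Alb) was the most abundant of 8 hepatocyte markers in each of the 6 rats, and the summed level of the list was 51918 FPKM in CL5, 49284 in CL6 and 49698 in CL7 and 41938 FPKM in FL2, 43581 in FL5 and 42534 in FL12, as is usual for liver. The sum was lower in each FL rat than in any CL rat, as was the summed FPKM of all genes. The median log2 fold change of the 8 was -0.105, and its sign depended on the scaling (-0.33 with median scaling, 0.29 with quantile normalization). None of the 8 was a DEG (differentially expressed gene) in the FL group, with 1 positive and 1 negative at an unadjusted p under 0.05 in limma. Without a limit on the fold change, 1 of the 8 was lower at an adjusted p under 0.05 in limma. Every FL rat lay below every CL rat in 4 of the 8 and above in 2, against 4.78% and 35.7% of all genes. Of 7 stellate cell or myofibroblast markers tested, 4 were upregulated, and the summed level of the 8 listed, led by Col3a1, was 79.3 FPKM in CL5, 83.6 in CL6 and 77.3 in CL7 against 193 FPKM in FL2, 529 in FL5 and 480 in FL12. The sum was higher in each of the 3 FL rats than in any CL rat, as the label of fibrosis says, and lowest among them in FL2. Of 10 macrophage markers 4 were upregulated, and their sum, led by Clec4f, was between 152 and 157 FPKM in the CL rats, against 345 FPKM in FL2, 334 in FL5 and 204 in FL12. With median scaling or quantile normalization, 4 stellate cell and 3 macrophage markers were upregulated. In bulk tissue, fewer cells of a type and less RNA per cell cannot be told apart.

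Of 3 neutrophil markers tested all 3 were upregulated, with a sum, led by S100a8, of at most 1.06 FPKM in the CL rats, against 4.35 FPKM in FL2, 1.88 in FL5 and 3.82 in FL12. Mpo, listed among them, was at 0 in the 3 CL rats and in FL5 and was not tested. Ms4a1, a lymphocyte marker, was at 0 in CL5, and Cldn4, a cholangiocyte marker, was at 0 in CL6. With median scaling 1 neutrophil marker was upregulated, and with quantile normalization none. Among 4 cycling cell markers 1 was upregulated, Mki67, also the most abundant by its mean, and the sum was 2.19 FPKM in CL5, 4.01 in CL6 and 2.47 in CL7 and 3.05 FPKM in FL2, 14.7 in FL5 and 12.5 in FL12. Among 5 lymphocyte markers tested 1 was upregulated, with sums of 1.45 to 2.23 FPKM in the CL rats, against 3.87 FPKM in FL2, 3.71 in FL5 and 2.07 in FL12. Cd79a had the highest mean of them but led in FL2 and FL5 only. No cycling cell or lymphocyte marker was upregulated with either scaling. No DEG was found by limma among 6 cholangiocyte, 5 endothelial and 3 erythroid markers tested, and 1, 2 and 0 of them were higher, and 0, 0 and 1 lower, at an unadjusted p under 0.05. The cholangiocyte marker that was higher passed the filter through the FL group, since its mean in the CL group was 0.0867 FPKM. The cholangiocyte sum, led by Epcam, ranged from 5.54 to 7.75 FPKM in the CL rats, against 5.49 FPKM in FL2, 8.18 in FL5 and 11.5 in FL12, and the endothelial sum, led by Kdr, lay between 61.9 and 85.2 FPKM in all 6 rats. The erythroid sum, led by Hbb, was 86.7 FPKM in CL5, 152 in CL6 and 108 in CL7 and 121 FPKM in FL2 against 45.3 and 46.7 FPKM in FL5 and FL12. Among all genes tested, 9.29% were upregulated and 0.935% downregulated, and 31.5% were higher and 4.04% lower at an unadjusted p under 0.05. FL2 stood apart from FL5 and FL12 in the stellate cell, cycling cell and erythroid sums.

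Of the 9 genes, 1 was a DEG, Hmox1, which was upregulated in the FL group (an adjusted p under 0.05 with at least a 2-fold change, in limma on log2(FPKM + 0.1) with Benjamini-Hochberg adjustment over all genes tested). By the same rule 9.29% of all genes tested were upregulated. None of the 9 was downregulated, against 0.935% of all genes, and at an unadjusted p under 0.05 limma gave 3 higher and 0 lower, against 31.5% and 4.04% of all genes. Without a limit on the fold change, 1 of 9 had an adjusted p under 0.05, against 18.9% of all genes in either direction. Every FL rat lay above every CL rat in 2 of the 9, Hmox1 and Slc7a11, against 35.7% of all genes, and every FL rat lay below in 0 of 9, against 4.78%. With median scaling of the rats only Slc7a11 was separated in this way, against 22.3% of all genes above and 12.1% below, and with quantile normalization 0 of 9 were, against 15.2% and 17.4%. These counts are near to or under the shares of all genes.

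**Figure D1:**
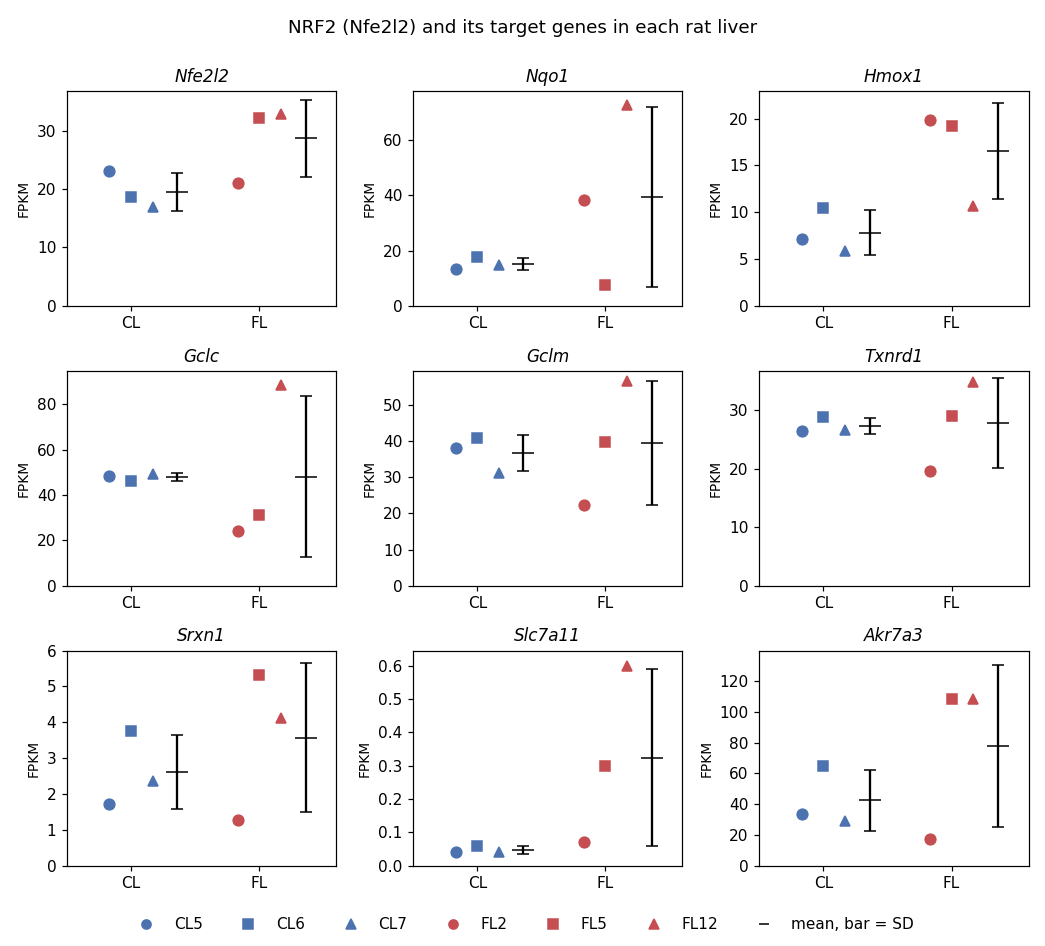
FPKM (vertical axes, starting at 0) of Nfe2l2 and its 8 targets in each CL rat (blue) and FL rat (red), with the group mean and SD (n = 3) as a black line and bar beside the points. The CL rats lie close together for Gclc and Txnrd1, and the FL rats are spread widely for Nqo1 (7.42 to 72.64 FPKM), Gclc (24.06 to 88.73 FPKM) and Akr7a3 (16.98 to 108.44 FPKM).

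The transcript of NRF2 itself came first. Nfe2l2 (ENSRNOG00000001548, chromosome 3) was at 23.09 FPKM in CL5, 18.66 in CL6 and 16.83 in CL7 and at 21 FPKM in FL2, 32.12 in FL5 and 32.85 in FL12. FL5 and FL12 were higher than every control rat, while FL2 lay inside the range of the CL group, so the groups overlapped. The CL group averaged 19.5 ± 3.22 FPKM and the FL group 28.7 ± 6.64 FPKM (SD, n = 3 each). The log2 fold change of 0.53 (standard error 0.20) was not significant (limma, adjusted p = 0.0987). Without FL2 it was 0.74, still under 2-fold (limma, adjusted p = 0.0184, range over 16 alternatives 0.0184 to 0.289), and without FL12 0.42. With 3 rats against 3, an exact permutation test of any single gene could not give a two-sided p below 0.1.

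Hmox1 (ENSRNOG00000014117, chromosome 19) encodes heme oxygenase 1, which opens the heme ring and releases iron, carbon monoxide and biliverdin. It read 7.13 FPKM in CL5, 10.47 in CL6 and 5.86 in CL7, and 19.8 FPKM in FL2, 19.22 in FL5 and 10.68 in FL12. FL2 and FL5 were nearly equal and well above the controls, whereas FL12 barely exceeded CL6, the highest control. The CL group averaged 7.82 ± 2.38 FPKM and the FL group 16.6 ± 5.11 FPKM (SD, n = 3 each), a 2.12-fold ratio of means. Hmox1 was upregulated with a log2 fold change of 1.06 (standard error 0.28, limma adjusted p = 0.0384), 0.77 above the median log2 difference of all genes tested. The call was lost in 9 of 16 alternatives, in which the adjusted p ranged from 0.0213 to 0.132. Among the single rats left out, it was lost without CL5 (0.104), CL7 (0.132), FL2 (0.0818) or FL5 (0.124), all adjusted p from limma. With median scaling of the rats the log2 fold change was 0.84 (limma, adjusted p = 0.105), and FL12 then lay below CL6.

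The sum of the macrophage markers had the same order of FL rats as Hmox1, which macrophages are known to express, at 345 FPKM in FL2, 334 in FL5 and 204 in FL12. The lymphocyte sum had the same order, at 3.87 FPKM in FL2, 3.71 in FL5 and 2.07 in FL12. Of the single macrophage markers 4 of 10 had this order (Cd14, Clec4f, Marco and Vsig4), and 5 were highest in FL5. Of the 10 markers 4 were upregulated (Cd68, Csf1r, Lyz2 and Marco, named after their values were seen), and of these Marco alone had the order of Hmox1. Cd14 and Clec4f, which also had it, had negative log2 fold changes of -0.70 and -0.017 (limma, adjusted p = 0.237 and 0.974). Clec4f was the most abundant by its mean over the 6 rats and led in the CL rats only, and none was at 0 in any rat. Their part in the difference of Hmox1 was not tested.

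Gclc and Gclm encode the catalytic and the modifier subunit of glutamate-cysteine ligase, the enzyme of the rate-limiting step of glutathione synthesis. Gclc (ENSRNOG00000006302, chromosome 8) was at 48.59 FPKM in CL5, 45.95 in CL6 and 49.06 in CL7, and at 24.06 FPKM in FL2, 31.32 in FL5 and 88.73 in FL12. No FL rat lay within the narrow range of the controls: FL2 and FL5 were below it and FL12 was far above it. The group means hid this, at 47.9 ± 1.68 FPKM for CL and 48.0 ± 35.4 FPKM for FL (SD, n = 3 each), and the log2 fold change of -0.24 was not significant (limma, adjusted p = 0.711). It was -0.80 without FL12 (limma, adjusted p = 0.0232, less than 2-fold, range over all alternatives 0.0232 to 0.956) and 0.14 without FL2.

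Gclm (ENSRNOG00000013409, chromosome 2) was measured at 38.1 FPKM in CL5, 40.95 in CL6 and 31.27 in CL7 and at 22.25 FPKM in FL2, 39.77 in FL5 and 56.61 in FL12. Here FL5 was inside the range of the CL group, with FL2 under and FL12 over it. The log2 fold change was 0.013 (standard error 0.31, limma adjusted p = 0.979), with means of 36.8 ± 4.97 and 39.5 ± 17.2 FPKM (SD, n = 3). Its sign was negative with median scaling (-0.21) and quantile normalization (-0.062). Both subunits shared the order FL2, FL5, FL12 from low to high, but their ratio was not constant: Gclc over Gclm in FPKM was 1.28, 1.12 and 1.57 in CL5, CL6 and CL7 and 1.08, 0.788 and 1.57 in FL2, FL5 and FL12. FL5 was the one rat of the 6 with more Gclm than Gclc per length.

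Slc7a11 (ENSRNOG00000010210, chromosome 2), the light chain of the exchanger that brings cystine into the cell for glutathione synthesis, was the least abundant of the 9. It read 0.04 FPKM in CL5, 0.06 in CL6 and 0.04 in CL7, and 0.07 FPKM in FL2, 0.3 in FL5 and 0.6 in FL12. Every FL rat was above every control rat, FL2 by only 0.01 FPKM, and values so near 0 rest on few reads. The log2 fold change of 1.31 (standard error 0.56) was not significant (limma, adjusted p = 0.135), and the pseudocount of 0.1 FPKM understates the change of a gene at this level. It was 0.32 at a pseudocount of 1 and 2.15 at 0.01, neither significant (limma, adjusted p = 0.162 and 0.131). Without FL2 it was 1.85 and passed (limma, adjusted p = 0.0246, range over 15 alternatives 0.0246 to 0.358), and without FL12 it was 0.83.

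Txnrd1 (ENSRNOG00000009088, chromosome 7), cytosolic thioredoxin reductase, was at 26.43 FPKM in CL5, 28.88 in CL6 and 26.67 in CL7 and at 19.6 FPKM in FL2, 29.07 in FL5 and 34.85 in FL12. FL2 was below all 3 controls, and FL5 and FL12 were above all 3, FL5 only just above the highest. Means of 27.3 ± 1.35 and 27.8 ± 7.70 FPKM (SD, n = 3) gave a log2 fold change of -0.012 (standard error 0.20, limma adjusted p = 0.972), which was 0.22 without FL2, 0.029 without CL6 and -0.19 without FL12.

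Srxn1 (ENSRNOG00000031167, chromosome 3) encodes sulfiredoxin, which restores overoxidised peroxiredoxins. Its values were 1.73 FPKM in CL5, 3.76 in CL6 and 2.37 in CL7, and 1.27 FPKM in FL2, 5.32 in FL5 and 4.12 in FL12. FL2 was the lowest and FL5 the highest of the 6 rats, on either side of a wide control range. The log2 fold change was 0.28 (standard error 0.50, limma adjusted p = 0.714), and it was 0.88 without FL2, -0.11 without FL5 and -0.089 with quantile normalization.

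Nqo1 (ENSRNOG00000012772, chromosome 19) encodes the quinone reductase most often used as a readout of NRF2. It was at 13.26 FPKM in CL5, 17.65 in CL6 and 14.87 in CL7, and at 38.33 FPKM in FL2, 7.42 in FL5 and 72.64 in FL12. FL5 had less Nqo1 than any control, and FL2 and FL12 had more than all of them. The CL group averaged 15.3 ± 2.22 FPKM and the FL group 39.5 ± 32.6 FPKM (SD, n = 3 each), and the log2 fold change of 0.86 (standard error 0.70) was not significant (limma, adjusted p = 0.412). Without FL5 it was 1.79 and passed (limma, adjusted p = 0.0199, range over 16 alternatives 0.0199 to 0.887), and without FL12 it fell to 0.16.

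Akr7a3 (ENSRNOG00000017899, chromosome 5), the aldo-keto reductase known for its reduction of aflatoxin dialdehyde in rat liver, read 33.52 FPKM in CL5, 64.93 in CL6 and 28.75 in CL7. It read 16.98 FPKM in FL2, 108.44 in FL5 and 108.39 in FL12. FL5 and FL12 were almost equal and above all controls, and FL2 was below all of them. The log2 fold change of 0.56 (standard error 0.69) was not significant (limma, adjusted p = 0.590). Without FL2 it was 1.45 and passed (limma, adjusted p = 0.0245, range over 16 alternatives 0.0245 to 0.934), and without FL5 or FL12 it was 0.11.

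The order of the FL rats therefore differed from gene to gene. FL12 was above every CL rat in 9 of 9 genes, FL5 in 6 and FL2 in 3, and the numbers below every CL rat were 0, 2 and 5. Among all genes tested, 62.5%, 60.9% and 49.2% were above every CL rat in FL12, FL5 and FL2, and 13.7%, 11.9% and 16.7% were below. FL12 was the highest of the 6 rats in 6 genes, and FL2 was the lowest in 5: Gclc, Gclm, Txnrd1, Srxn1 and Akr7a3. The shares of all genes with FL12 highest or FL2 lowest were not computed, so these counts have no background to compare with. The median over the 9 genes of the log2 difference from the CL mean was -0.48 in FL2, 0.73 in FL5 and 0.76 in FL12, against 0.20, 0.33 and 0.35 for all genes tested. With median scaling FL12 was above every CL rat in 7 of 9, FL5 in 5 and FL2 in 3, and the numbers below were 0, 3 and 5. Of all genes 42.2%, 41.9% and 38.2% were then above and 27.5%, 26.4% and 27.3% below. With quantile normalization they were 7, 5 and 2 above and 0, 2 and 5 below, against 33.7%, 30.9% and 30.8% of all genes above and 35.9%, 37.6% and 34.5% below. FL2 was also the FL rat with the lowest stellate cell sum (193 FPKM against 529 and 480 in FL5 and FL12), with 4 of 7 markers tested upregulated, Col3a1 the most abundant and none of the 8 at 0 in any rat, and with the lowest cycling cell sum (3.05 against 14.7 and 12.5 FPKM). Among the FL rats, FL2 also had the lowest hepatocyte and cholangiocyte sums. It had the highest macrophage, neutrophil, lymphocyte, endothelial and erythroid sums. The part of any of these cell types in the low values of FL2 was not tested.

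**Figure D2:**
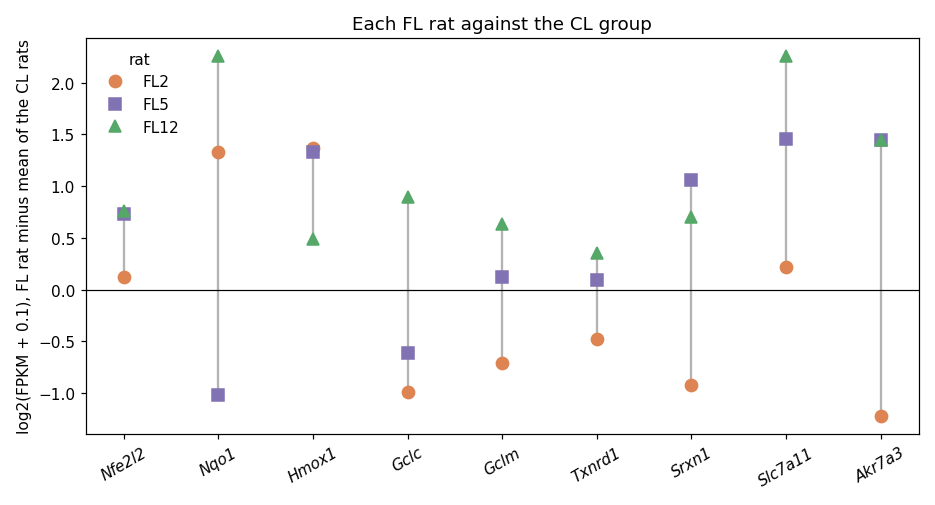
Difference of each FL rat from the mean of the 3 CL rats in log2(FPKM + 0.1) (vertical axis) for each of the 9 genes (horizontal axis), with a grey line over the range of the FL rats. FL2 (circles) lies lowest among the FL rats for 7 of the 9 genes, all but Nqo1 and Hmox1, and FL5 (squares) lies at -1.02 for Nqo1, where FL2 and FL12 lie at 1.33 and 2.25. The share of all genes with FL2 lowest among the FL rats was not computed.

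In these genes the FL rats differed from each other more than the CL rats did. The range among the FL rats in log2(FPKM + 0.1) had a median of 1.88 over the 9 genes and of 0.48 over all genes tested, and the range among the CL rats a median of 0.41 over the 9 genes and of 0.38 over all genes. In 9 of 9 genes the range was wider among the FL than among the CL rats, which held for 61.3% of all genes tested. With median scaling these medians were 1.75 and 0.46 in the FL rats and 0.37 and 0.37 in the CL rats. Among the 10535 genes that averaged 1 FPKM or more, 0.361% had a wider range among the FL rats than Nqo1, 0.617% than Akr7a3, 1.72% than Srxn1, 1.96% than Gclc and 4.85% than Gclm. For Hmox1, Txnrd1 and Nfe2l2 these shares were 12.5%, 14.5% and 23.8%. In the CL rats the opposite held for Gclc and Txnrd1: 93.1% and 87.7% of genes had a wider range there than these. The range among the CL rats was itself wide for Akr7a3, Srxn1 and Hmox1, where 3.36%, 4.17% and 7.94% of genes had a wider one.

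Read as a list, 7 of the 9 genes had a positive and 2 a negative log2 fold change, with a median of 0.53 against 0.29 for all genes tested. Most genes tested were also positive, since that median of all genes is above 0, but their share was not computed. Relative to that median of all genes, 5 of the 9 were higher. With median scaling 6 of the 9 had a positive log2 fold change, and with quantile normalization 5. The median of the 9 was 0.74 without FL2 (0.34 for all genes), and it was 0.11 without FL5 or FL12, below those of all genes (0.27 and 0.26). With median scaling the 2 medians were 0.31 and 0.076, and with quantile normalization 0.41 and -0.045, so the sign of the median over all genes depended on the scaling. Neither scaling left a DEG among the 9. With median scaling and quantile normalization the log2 fold changes were 0.31 and 0.41 for Nfe2l2, 0.63 and 0.70 for Nqo1, 0.33 and 0.52 for Akr7a3, 1.19 and 0.78 for Slc7a11, -0.46 and -0.30 for Gclc and -0.24 and -0.13 for Txnrd1.

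Of 12 regulators of NRF2, none was a DEG in limma (9.29% of all genes were upregulated), with 2 higher and 0 lower at an unadjusted p under 0.05, against 31.5% and 4.04% of all genes, and a median log2 fold change of 0.17 (-0.044 with median scaling, -0.082 with quantile normalization). Mafk, a small MAF partner of NRF2, had 4.39 FPKM in CL5, 4.49 in CL6 and 4.42 in CL7 and 6.43 FPKM in FL2, 6.86 in FL5 and 6.52 in FL12. The rats of each group were nearly equal, with a clear gap between the groups. It rose by 0.56 on the log2 scale, less than 2-fold (standard error 0.11, limma adjusted p = 0.0146, range over alternatives 0.0101 to 0.158). With median scaling the log2 fold change was 0.34 (limma, adjusted p = 0.0749) and with quantile normalization 0.27 (limma, adjusted p = 0.158). The adjusted p also exceeded 0.05 without CL7 or FL5 (limma, 0.0578 and 0.0569). Keap1, the sensor that holds NRF2 back, was at 6.31 FPKM in CL5, 6.52 in CL6 and 6.08 in CL7 and 5.69 FPKM in FL2, 7.48 in FL5 and 7.22 in FL12, with a log2 fold change of 0.10 (limma, adjusted p = 0.642) that was -0.12 with median scaling and -0.17 with quantile normalization. For Bach1, the repressor, it was -0.16 (limma, adjusted p = 0.426), and for Mafg, another small MAF partner, 0.31 (limma, adjusted p = 0.183). With median scaling Bach1 was at -0.38 (limma, adjusted p = 0.0742) and Mafg at 0.091, and with quantile normalization Bach1 was at -0.43 (limma, adjusted p = 0.0590) and Mafg at 0.056.

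Among 12 genes of glutathione handling tested (Ggt5 was not found), 1 was upregulated and 0 downregulated (9.29% and 0.935% of all genes), and the median log2 fold change was 0.076 (-0.15 with median scaling, 0.0088 with quantile normalization). At an unadjusted p under 0.05, limma gave 2 higher and 3 lower, where 31.5% and 4.04% of all genes were. The 3 lower were Cbs, Chac2 and Gpx4, with log2 fold changes of -0.56, -0.34 and -0.28 (limma, adjusted p = 0.0906, 0.0784 and 0.127). Every FL rat lay below every CL rat in these 3 of the 12 and above in 2, against 4.78% and 35.7% of all genes. The upregulated gene was Gpx2, a glutathione peroxidase known from epithelia, listed at 0.02 FPKM in CL5, 0 in CL6 and 0.03 in CL7 and at 0.16 FPKM in FL2, 0.57 in FL5 and 0.69 in FL12. Gpx2 passed the filter through the FL group. All FL rats were higher, at levels that rest on few reads (log2 fold change 2.15, standard error 0.50, limma adjusted p = 0.0249). The call was lost without CL5, CL6, CL7, FL5 or FL12, with limma adjusted p of 0.0662, 0.0709, 0.0726, 0.0937 and 0.0800 (range over alternatives 0.00692 to 0.0937). It was also lost at a pseudocount of 1, where the log2 fold change was 0.52, and with quantile normalization (limma, adjusted p = 0.061).

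In the thioredoxin and peroxiredoxin system, 0 of 11 genes were DEGs in limma (5 higher and 0 lower at an unadjusted p under 0.05, against 31.5% and 4.04% of all genes), with a median of 0.26 (0.037 with median scaling, 0.081 with quantile normalization). Txnip, which binds and inhibits thioredoxin, was at 18.69 FPKM in CL5, 18.08 in CL6 and 19.82 in CL7 and 35.26 FPKM in FL2, 24.14 in FL5 and 24.82 in FL12. FL2 was highest here, and all FL rats exceeded all controls. Txnip rose by 0.55 on the log2 scale (standard error 0.16, limma adjusted p = 0.0476), and Prdx2, a peroxide-reducing peroxiredoxin, by 0.51 (standard error 0.12, limma adjusted p = 0.0282), both under 2-fold. Prdx2 ranged from 32.61 to 37.11 FPKM in the CL group and from 44.87 to 55.13 FPKM among FL rats. With median scaling the limma adjusted p was 0.288 for Txnip and 0.112 for Prdx2, the highest over the alternatives. For both it also exceeded 0.05 with quantile normalization, in limma without a trend and with any rat but FL2 left out. For Txnip the limma adjusted p was also above 0.05 at a pseudocount of 1 (0.0516) and without a filter on low values (0.064). Of 4 genes of NADPH supply tested, limma called none, with 1 higher and 0 lower at an unadjusted p under 0.05 and a median of 0.37 (0.14 with median scaling, 0.30 with quantile normalization).

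Heme and iron handling had 0 DEGs of 8 genes tested in limma (Flvcr1 and Slc40a1 were not found), 2 higher and 0 lower at an unadjusted p under 0.05 (31.5% and 4.04% of all genes), and a median of 0.16 (-0.066 with median scaling, 0.071 with quantile normalization). The 2 higher genes were Blvra and Slc48a1. Blvra, which reduces biliverdin to bilirubin, was at 3.77 FPKM in CL5, 5.36 in CL6 and 2.84 in CL7 and 6.02 FPKM in FL2, 9.01 in FL5 and 7.81 in FL12, and rose by 0.94 on the log2 scale (standard error 0.24, limma adjusted p = 0.0349, range over alternatives 0.0264 to 0.115). Slc48a1, a heme transporter of the endosome and lysosome, was at 6.72 FPKM in CL5, 10.69 in CL6 and 8.79 in CL7 and 15.83 FPKM in FL2, 17.76 in FL5 and 14.17 in FL12, and rose by 0.88 (standard error 0.18, limma adjusted p = 0.0160, range over alternatives 0.0137 to 0.0629). The groups did not overlap for either gene. With median scaling the limma adjusted p was 0.0721 for Blvra and 0.0541 for Slc48a1, and with quantile normalization 0.0995 and 0.0559. Blvra reached 2-fold without CL6 (1.17) or FL2 (1.10), and Slc48a1 without CL6 (1.035). The limma adjusted p exceeded 0.05 for Blvra without CL5 (0.0931), CL7 (0.107), FL5 (0.115) or FL12 (0.0923), and for Slc48a1 without CL7 (0.0568) or FL5 (0.0629). For Blvra the limma adjusted p was also above 0.05 without a filter on low values (0.0547) and without a trend (0.067).

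Among 17 other reported NRF2 targets tested (Ugt1a6 and Akr1b10 were not found), 4 were upregulated and 0 downregulated (9.29% and 0.935% of all genes), with 6 higher and 1 lower at an unadjusted p under 0.05 in limma (31.5% and 4.04% of all genes) and a median of 0.22 (0.032 with median scaling, 0.067 with quantile normalization). With median scaling 2 were upregulated and with quantile normalization 1. Abcc3, an export pump of the basolateral membrane of hepatocytes, was at 2.13 FPKM in CL5, 2.83 in CL6 and 1.06 in CL7 and 4.01 FPKM in FL2, 10.22 in FL5 and 18.35 in FL12. It had the largest log2 fold change of the 4, 2.23 (standard error 0.54, limma adjusted p = 0.0280), with FL2 closest to the controls. Akr1b8, an aldo-keto reductase, was at 0.43 FPKM in CL5, 0.40 in CL6 and 0.57 in CL7 and 1.29 FPKM in FL2, 1.97 in FL5 and 1.73 in FL12. Its log2 fold change of 1.63 (standard error 0.24, limma adjusted p = 0.00612) kept its call in 15 of 16 alternatives and fell under 2-fold at a pseudocount of 1 (0.85). The other DEGs were the transporters Abcc4 (1.24, standard error 0.30, limma adjusted p = 0.0292) and Abcb1a, a P-glycoprotein (1.06, standard error 0.25, limma adjusted p = 0.0253). Abcc4 ranged from 1.6 to 2.38 FPKM in the CL group and from 3.25 to 7.68 FPKM among FL rats, and Abcb1a from 5.59 to 7.52 and from 9.05 to 18.28 FPKM. These 3 transporters had the order FL2, FL5, FL12 from low to high, as Gclc and Gclm did. The share of all genes with this order was not computed. Abcc2, another transporter of the list, had the same order but was the 1 lower gene. It was at 132.26 FPKM in CL5, 133.42 in CL6 and 114.41 in CL7 and at 64.33 FPKM in FL2, 87.26 in FL5 and 111.54 in FL12. Its log2 fold change was -0.56 (limma, adjusted p = 0.0902). The calls of the 3 upregulated transporters were lost without CL7, FL5 or FL12, with limma adjusted p of 0.0987, 0.0909 and 0.0703 for Abcc3, 0.105, 0.0845 and 0.0625 for Abcc4 and 0.0863, 0.0867 and 0.0645 for Abcb1a. They were also lost without CL5 for Abcc3 (0.0685) and Abcc4 (0.0684), and without CL6 for Abcc4 (0.0593) and Abcb1a (0.0795). Quantile normalization and limma without a trend also lost all 3, and median scaling and a pseudocount of 1 lost Abcc4 and Abcb1a.

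Slc7a11 is also a known target of ATF4, the transcription factor of the amino acid response. The list of its targets held 10 genes, Atf4 itself among them. Of these 10, 1 was upregulated and 0 downregulated (9.29% and 0.935% of all genes), with 4 higher and 0 lower at an unadjusted p under 0.05 in limma (31.5% and 4.04% of all genes) and a median of 0.75 (0.54 with median scaling, 0.37 with quantile normalization). The upregulated gene was Vldlr, the very low density lipoprotein receptor, at 0.35 FPKM in CL5, 0.44 in CL6 and 0.29 in CL7 and 0.80 FPKM in FL2, 1.51 in FL5 and 2.06 in FL12 (log2 fold change 1.68, standard error 0.35, limma adjusted p = 0.0164). The 3 FL rats had the order of Slc7a11, and the groups did not overlap. The call was lost without CL5, CL7 or FL5 (limma, adjusted p = 0.0522, 0.0664 and 0.0626, range over alternatives 0.00518 to 0.0664). It was also lost at a pseudocount of 1, where the log2 fold change was 0.82, and with quantile normalization (limma, adjusted p = 0.0594).

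**Figure D3:**
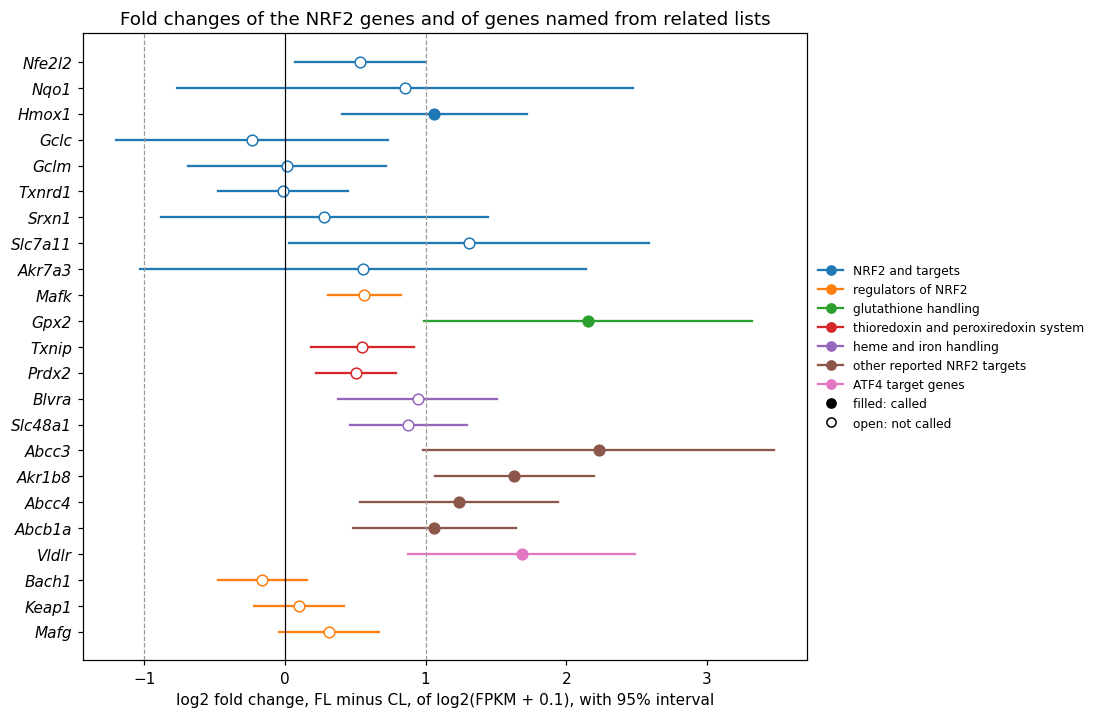
Log2 fold change of FL against CL on the scale of log2(FPKM + 0.1) (horizontal axis) with its 95% interval from limma for the 9 genes and for genes named from related lists (vertical axis), with dashed lines at 2-fold. Filled circles are DEGs: Hmox1 (1.06) among the 9, and Gpx2, Abcc3, Akr1b8, Abcc4, Abcb1a and Vldlr among the others.

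The genes most like Nfe2l2, Nqo1 and Hmox1 over the 6 rats were sought among 10534 others that averaged 1 FPKM or more, by Pearson's r of log2(FPKM + 0.1), as a description of these 6 libraries. Nearest to Nfe2l2 were Cltc (r = 0.999), Spg11 (r = 0.999) and Ddit4 (r = 0.997). Cltc was at 49.07 FPKM in CL5, 43 in CL6 and 41.05 in CL7 and at 46.54 FPKM in FL2, 58.5 in FL5 and 59.17 in FL12, with FL2 again among the controls. Nearest to Nqo1 were Agpat2 (r = 0.990), Akr1b7 (r = 0.988) and AABR07034532.1 (r = 0.983). Agpat2 shared the low value in FL5, at 19.17 FPKM against 29.75 and 34.07 FPKM in FL2 and FL12 and 21.65 to 24.99 FPKM in the CL rats. Nearest to Hmox1 were Sec61b (r = 0.997), Clu (r = 0.992) and Fbrs (r = 0.991). Sec61b was at 16.15 FPKM in CL5, 18.95 in CL6 and 14 in CL7 and 27.65 FPKM in FL2, 26.26 in FL5 and 19.77 in FL12, with FL12 the lowest FL rat as for Hmox1.

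Promoters from RefSeq (GRCr8, 250 bases before to 50 after the start) were searched for letters of the antioxidant response element, the sequence through which NRF2 acts on its targets. An entry was found for 8 of the 9, all but Hmox1. The core TGACNNNGC, searched on both strands, was in 12.1% of 33469 promoters and in those of Nfe2l2, Gclm and Txnrd1. The form TGAGNNNGC, chosen after the first search, was in 17.2% of promoters and in that of Srxn1, and either form was in 27.1% of promoters and 4 of 8 genes. The stretches are given in the direction of the gene, with the match in capitals. That of Nfe2l2 (chr3:81028950-81028971, minus strand) has its match at position 38 from the start. Those of Gclm (chr2:213031953-213031981, plus strand) and Txnrd1 (chr7:22755964-22755992, minus strand) have their matches at positions -172 and -78 and hold the core on the opposite strand. Srxn1 held 3 matches, of which the match at position -5 (chr3:161064797-161064825, plus strand) is shown and holds TGAGTCA, letters also known as an AP-1 site. A match is a description of letters and not of binding.
Nfe2l2: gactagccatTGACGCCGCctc
Gclm: tgcggtttctGCTTAGTCAttgtcttcca
Txnrd1: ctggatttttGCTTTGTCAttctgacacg
Srxn1: aaactcacccTGAGTCAGCgacccgacgc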

How the data were processed

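Liver RNA of 6 rats was sequenced after removal of ribosomal RNA. The authors trimmed reads with FASTX-Toolkit 0.0.13, aligned them with TopHat2 allowing 4 mismatches, and deposited FPKM with 2 decimals computed from uniquely mapped reads. The methods name the genome GRCH38, while the identifiers are Ensembl's of the rat, and the annotation release is not given in the sources used here. Antisense reads are said to have been discarded for lncRNAs (long noncoding RNAs). The use of strand for the FPKM of the gene table is not given, so reads of overlapping or antisense genes cannot be told apart. No batch is given. The authors' own calls came from edgeR on counts, which were not used here. Groups came from the labels, and 2 columns of values that no sample is named for were not used. No pair of rats was a duplicate, since 0.866% to 2.54% of the genes above 0 in either rat of a pair had equal values.

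The FL group was compared with the CL group on log2(FPKM + 0.1) with limma 3.58.1 (trended prior variance) in R 4.3.3, over the 14864 genes that averaged 0.1 FPKM or more, with Benjamini-Hochberg adjustment over all of them. A DEG has an adjusted p under 0.05 with at least a 2-fold change. Fold changes are on the log2(FPKM + 0.1) scale, which understates those of low genes. The procedure was checked on simulated data with planted changes larger than that of Hmox1 and no shift over the other genes. That check does not bear on smaller changes. Depth came from the value of 1 read in U6 genes and the most common RefSeq length of such genes, and 72.1% to 88.6% of low U6 values were whole multiples within 0.1 step. The alternatives were pseudocounts of 1 and 0.01, no filter or one at 1 FPKM, median scaling (over 9201 genes), quantile normalization, no trend in the prior, a robust prior, calls by adjusted p alone, each rat left out, and a weight per group. The members and lists were chosen with earlier results of these data known. Named were all 9 members, up to 4 genes per related list with an adjusted p under 0.05 and the largest fold change, Keap1, Bach1 and Mafg, the most abundant marker of each cell type and markers at 0, and the 3 genes most like Nfe2l2, Nqo1 and Hmox1. The macrophage markers called or with the order of Hmox1 were named after their values were seen. So were Abcc2 and the 3 lower genes of glutathione handling. Promoters were searched with Python 3.11.15, and figures drawn with matplotlib 3.10.9.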

Additional observations from a re-analysis of the deposited data

How the results depend on the processing

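Hmox1 kept a positive log2 fold change in all 16 alternatives (0.84 to 1.35) and its call in 7. Upregulated members numbered 1, and 0 at a pseudocount of 1, without a filter, with median scaling, with quantile normalization and with limma without trend. With 1 rat left out they numbered 0 (without CL5 or CL7) to 2 (without FL2, Slc7a11 and Akr7a3), and without FL5 the 1 call was Nqo1 in place of Hmox1. No setting gave a downregulated member. Over all genes, 1381 upregulated and 139 downregulated became 462 and 72 at a pseudocount of 1, 824 and 180 with median scaling, 453 and 231 with quantile normalization, and 2518 and 288 by adjusted p alone. A filter at 1 FPKM left 854 upregulated. Leaving out 1 rat gave 740 (without CL7) to 1831 (without FL2) upregulated, with 745 without FL5, and 81 (without CL6 or CL7) to 160 (without FL2) downregulated. Signs turned for some log2 fold changes that were not significant. With 1 rat left out, Gclc ranged from -0.80 (without FL12) to 0.14 (without FL2), Gclm from -0.30 (without FL12; also negative without CL7 and FL5) to 0.38 (without FL2), Txnrd1 from -0.19 (without FL12) to 0.22 (without FL2; also positive without CL6) and Srxn1 from -0.11 (without FL5) to 0.88 (without FL2). With median scaling Gclm was -0.21 and Keap1 -0.12, and with quantile normalization Gclm was -0.062, Srxn1 -0.089 and Keap1 -0.17. The cause was not tested. Akr7a3 was 1.45 without FL2 and 0.11 without FL5 or FL12, Slc7a11 1.85 without FL2 and 0.83 without FL12, and Nqo1 1.79 without FL5 and 0.16 without FL12. Slc7a11 was not tested with the filter at 1 FPKM. The weight per group was chosen after the data were seen and changed no call of a member. No paired analysis was possible because the groups share only the rat number 5, which names different rats. Depth rests on a length taken for U6 genes, and no counting error is given for single values.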

Other observations

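The genes here were chosen after their values were seen, and no test of a pattern was made. FL2 was the lowest FL rat, as for Akr7a3, in Ephx1, Gstm1 and Gstm3. Ephx1, microsomal epoxide hydrolase, was at 473 FPKM in CL5, 671 in CL6 and 471 in CL7 and at 266 FPKM in FL2, 874 in FL5 and 1025 in FL12. The glutathione S-transferase Gstm1 was at 509 FPKM in CL5, 739 in CL6 and 571 in CL7 and at 282 FPKM in FL2, 799 in FL5 and 836 in FL12, and Gstm3 at 2.24, 1.46 and 0.69 FPKM against 0.71, 10.4 and 6.21 FPKM. FL2 was below all controls in Ephx1 and Gstm1 but inside their range in Gstm3. The groups overlapped in each, and none passed the test (limma, adjusted p = 0.764, 0.928 and 0.283).

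The opposite arrangement, with FL5 the lowest FL rat as for Nqo1, was seen in Asns, Phgdh, Orm1, Kng1l1 and Lcn2. In none of these was FL5 below all controls, as it was for Nqo1. FL5 lay inside the range of the CL rats in Asns and Phgdh and above all of them in Orm1, Kng1l1 and Lcn2. Asns, asparagine synthetase, was at 1.86 FPKM in CL5, 3.57 in CL6 and 1.43 in CL7 and at 8.19 FPKM in FL2, 2.47 in FL5 and 15.6 in FL12 (limma, adjusted p = 0.0992). Phgdh, the first enzyme of serine synthesis, was at 0.79, 3.05 and 1.11 FPKM against 5.54, 2.36 and 15.3 FPKM (limma, adjusted p = 0.0779). Orm1, an acute-phase glycoprotein, was at 166 FPKM in CL5, 254 in CL6 and 245 in CL7 and at 3920 FPKM in FL2, 296 in FL5 and 895 in FL12 (limma, adjusted p = 0.0885). Kng1l1, a kininogen, was at 293, 280 and 296 FPKM against 3322, 386 and 1930 FPKM (limma, adjusted p = 0.0576). Lcn2, lipocalin 2, was upregulated, from 1.35 FPKM in CL5, 1.35 in CL6 and 3.75 in CL7 to 490.47 FPKM in FL2, 13.14 in FL5 and 168.35 in FL12 (limma, adjusted p = 0.0152). Psat1, also of serine synthesis, was nearly equal in FL2 and FL5, at 1.12 and 1.09 FPKM, against 7 FPKM in FL12 and 0.43 to 2.85 FPKM in the CL rats (limma, adjusted p = 0.409).

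Akr1b7, near to Nqo1 in its pattern, was listed at 0 in FL5 and at 1.08 and 5.09 FPKM in FL2 and FL12, with 0.08 FPKM in CL5, 0.19 in CL6 and 0.23 in CL7. Cyp1a1, a target of the aryl hydrocarbon receptor as Nqo1 also is, was upregulated at 8.65 FPKM in FL2, 3.62 in FL5 and 5.91 in FL12 against 1.17 FPKM in CL5, 1.25 in CL6 and 1.03 in CL7 (log2 fold change 2.22; limma, adjusted p = 0.00456). Cyp1a2, of the same receptor, was at 520 FPKM in FL2, 187 in FL5 and 316 in FL12 and between 353 and 388 FPKM in the CL rats, without passing the test (limma, adjusted p = 0.639).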
